A study of Sus scrofa with 36 samples.

Results

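The ETS transcription factors described here were EHF, ELF3, ELF5, SPDEF, ELF1, ETS1, ETS2, ETV1, ETV4 and ETV5, measured in the adrenal glands of pigs kept at thermoneutrality or under heat stress. Probes were assigned to these 10 genes by the gene name in the scanner files, or otherwise by the RefSeq transcript in the probe's name, accession or description. Of the 10 genes, 8 had at least 1 named probe, and together they had 12 of the 60305 probes on the array. No probe carried the name ELF5 or ETV4. ETS1 had 4 probes, ETV1 had 2 and the other 6 genes had 1 each. All 12 probes were well above background on all 36 arrays, none was saturated, and all 12 passed the filter on dim probes. The genes were chosen by the log2 difference of EHF between the temperature groups in these same pigs, together with family membership for the others, so that contrast is given as a description, without a test.

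The arrays came from 36 castrated male pigs of the Creole and Large White breeds and of their cross (Large White x Creole), with 6 pigs of each of these 3 breeds at each temperature. Pigs entered the climatic room at 11 weeks of age. The thermoneutral (TN) pigs were kept at 24 °C and slaughtered before the rise in temperature. The heat-stressed (HS) pigs were slaughtered after 4 or 5 days of heat. Their temperature is 30 °C in the sample labels, and 32 °C in the design text and in the published methods. The day of slaughter therefore differs between the temperature groups. Each breed consisted of sets of littermates, which the labels of the arrays do not identify, so that the tests treat littermates as independent pigs.

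ETS factors share a DNA-binding domain that recognises sites with a GGAA or GGAT core. EHF, ELF3 and ELF5 form a group with mostly epithelial expression, and SPDEF is also known from secretory epithelia. ETS1 and ELF1 are abundant in lymphoid cells, ETS1 also in endothelium, ETS2 is a widely expressed target of RAS and ERK signalling, and ETV1, ETV4 and ETV5 are the PEA3 group, which responds to fibroblast growth factors and other receptor tyrosine kinase ligands.

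On Sscrofa11.1, EHF lies on chromosome 2 from 26287244 to 26340222, and ELF5 lies 103756 bases beyond it, from 26443979 to 26486802. ELF3 lies on chromosome 10 from 24237852 to 24242266, SPDEF on chromosome 7 from 30515925 to 30538095 and ELF1 on chromosome 11 from 25772090 to 25896613. ETS1 (55377264 to 55512180) and ETV1 (83322818 to 83567136) are both on chromosome 9. ETS2 (202464341 to 202483534) and ETV5 (123873346 to 123930292) are both on chromosome 13, and ETV4 is on chromosome 12 from 19531507 to 19548303.

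Each value below is the brightness of a probe of 60 bases, and 30 bases of the probes that carry the results are given from the deposited annotation. They show which stretch stands for EHF, and that the 4 probes of ETS1 sample 3 separate stretches. The probes of each gene are numbered by brightness. Bases 31 to 60 are printed, except for ETS1 probes 2 and 3, for which bases 1 to 30 are printed. Capitals mark bases that ETS1 probes 2 and 3 share, and in ETV5 the hexamer AATAAA, which is the usual polyadenylation signal and occurred on the printed strand of 10.3% of all probes (14.1% on either strand). Exon or UTR positions of the probes were not analysed here.
EHF: gctctatgtggtttgtgatttgtcgttgcc
ETS1 probe 1: aagggaggaagagacaaatgtgtcccatca
ETS1 probe 2: AAATCCTGTCAGTCTTTTATCAGCTGGACA
ETS1 probe 3: gatAAATCCTGTCAGTCTTTTATCAGCTGG
ETS1 probe 4: gttattctatttttaattttccagagctcg
ETV1 probe 1: tgggcattttcccctgtcttttctgagtct
ETV1 probe 2: tttacagtcatgttaattatttcaacttca
ETV5: gtacAATAAAgaagtttgctttcagtttaa
SPDEF: ctccatccgccagtattataggaaaggcat
ETS1 probes 2 and 3 overlapped by 57 of their 60 bases and are in effect 1 measurement. No other pair of probes of 1 gene shared a run of more than 6 bases, and none of the 12 probes shared 25 bases with a probe of another gene.

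Across the 36 arrays, between 42437 and 48061 of 60306 spots were well above background, and the correlation between any pair of arrays lay between 0.982 and 0.996. The arrays lay on 5 slides and each slide held as many TN as HS arrays. STAR and CYP11A1 of the adrenal cortex were bright, with normalized log2 intensities of 17.73 and 18.34, as was CHGA of chromaffin cells (18.70). These genes were picked after their values were seen. Others of the same lists were dimmer, such as MC2R of the cortex (8.99) and SLC18A1 of chromaffin cells (7.50). Of 7 kidney tubule genes with a probe, 4 did not pass the filter, among them SLC12A1 and LRP2. The brightest array by its median raw intensity was that of cross HS replicate 4. In whole glands, fewer cells of a type and less RNA per cell cannot be told apart. All values are normalized log2 intensities, and differences are on the log2 scale.

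EHF was the ETS gene with the largest difference between temperatures, and it was lower in HS pigs. In Creole pigs its log2 intensity lay between 7.47 and 9.89 at TN (median 8.29) and between 7.11 and 8.48 under HS (median 8.08). In Large White pigs it lay between 7.94 and 10.03 at TN (median 9.05) and between 6.99 and 8.08 under HS (median 7.39). In the cross it lay between 8.27 and 11.14 at TN (median 10.13) and between 7.78 and 9.68 under HS (median 8.54). The TN and HS ranges overlapped in each breed, and in Large White pigs the overlap came from a single TN pig, at 7.94. Among HS pigs, 17 of 18 had less EHF than the mean TN pig of the same breed, the exception being 1 Creole pig at 8.48. Over all breeds, 7 TN pigs stood above every HS pig and 5 HS pigs stood below every TN pig.

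**Figure D1:**
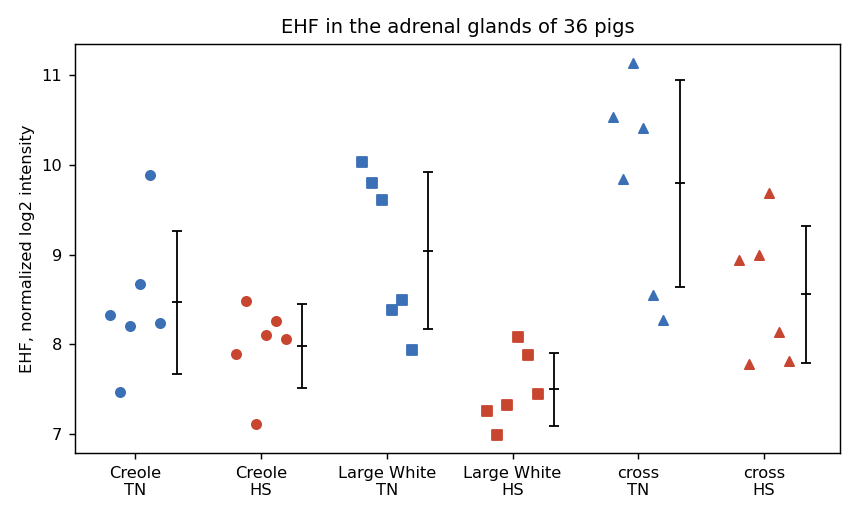
Normalized log2 intensity of EHF (y axis) in each of 36 pigs, by breed and temperature (x axis, 6 pigs per group). Points are pigs (TN blue, HS red), and the black mark beside each group is its mean with an error bar of 1 SD. The Large White HS pigs sit between 6.99 and 8.08, and the highest TN pigs are those of the cross, up to 11.14.

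The mean of EHF over the 3 breeds was 9.10 ± 1.05 at TN and 8.01 ± 0.70 under HS (SD, n = 18 each). The difference was -1.09 (standard error 0.25), a 2.12-fold lower intensity under HS. Within the breeds it was -0.48 for Creole pigs, -1.54 for Large White pigs and -1.23 for crossbred pigs (standard error 0.43 each). These 3 differences were not shown to differ (limma F test of the interaction, unadjusted p = 0.218 and adjusted p = 0.982 over 45943 probes). Ordered by their means, the groups ran from Large White HS (7.50) over Creole HS (7.98), Creole TN (8.47), cross HS (8.56) and Large White TN (9.04) to cross TN (9.79), and each neighbouring pair in this order overlapped. EHF also varied widely among pigs of 1 group. Its residual SD in the fit with temperature and breed was 0.80. This was higher than that of 98.9% of the 45943 probes tested and of 98.2% of the 5540 probes of like brightness.

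The EHF difference, here not adjusted for breed, was negative on each of the 5 slides, with sizes that varied. It was -1.50 on slide 1 (2 TN and 2 HS arrays), and with 4 arrays of each temperature it was -0.86 on slide 2, -0.995 on slide 3, -1.93 on slide 4 and -0.36 on slide 5. Within each slide the TN and HS arrays also differ in their mix of breeds, as do the slides. On slide 1 the TN arrays were of Large White pigs and the HS arrays of a Creole and a cross pig. The part of slide and breed in these values was not tested. The 4 TN pigs of slide 5 lay between 7.94 and 8.55, whereas the 4 TN pigs of slide 4 reached 11.14. In the fit with breed, the difference was -1.40 without slide 5 and -0.90 without slide 4. Without cross HS replicate 4, whose array was the brightest and whose EHF value was the highest of the HS pigs, it was -1.15.

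**Figure D2:**
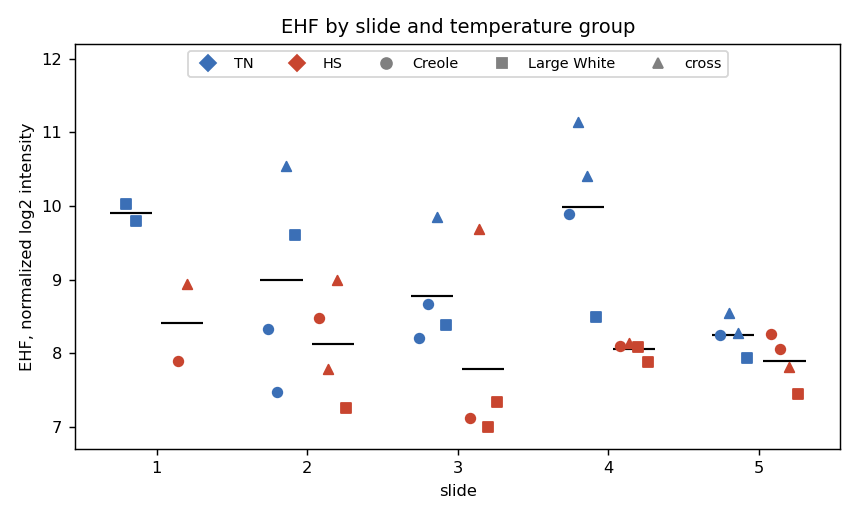
Normalized log2 intensity of EHF (y axis) by slide (x axis) for TN pigs (blue, left) and HS pigs (red, right), with the breed given by the symbol and the mean of each set as a black line. The TN mean is above the HS mean on all 5 slides, most on slide 4 (9.98 against 8.05) and least on slide 5 (8.25 against 7.90). The means are not adjusted for breed, whose mix differs between the TN and HS arrays of each slide.

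The other 7 ETS genes differed far less between temperatures. In this contrast 407 of 45943 probes, or 0.886%, passed an FDR of 0.05 (0.39% higher and 0.496% lower in HS pigs), and 6153, or 13.4%, had an unadjusted p under 0.05. The list was built around 1 of the 407, the probe of EHF, so nothing is read from the count of 1 among the 12 probes. Taking the brightest probe of each gene, 4 genes were higher and 4 lower in HS pigs, with a median difference of 0.02. Over all 45943 probes 50% were higher, with a median difference of 4.74e-06.

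The epithelial relatives of EHF did not share its pattern in values. ELF3, a regulator of epithelial differentiation, stood between 9.23 and 9.81 in TN pigs (median 9.59) and between 9.16 and 9.75 in HS pigs (median 9.51), a difference of -0.03 (standard error 0.05). The ranges covered each other almost fully. SPDEF stood between 6.20 and 6.75 in TN pigs (median 6.50) and between 6.44 and 7.05 in HS pigs (median 6.56), a difference of 0.11 (standard error 0.05). Its difference was 0.20 in Creole pigs, 0.09 in the cross and 0.02 in Large White pigs. The highest value was that of a Creole HS pig.

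ELF1, which is known for its part in blood cell development, lay between 6.49 and 6.95 in TN pigs and between 6.49 and 6.97 in HS pigs, with a difference of 0.07 (standard error 0.04). ETS2 lay between 7.39 and 7.84 in TN pigs and between 7.41 and 7.90 in HS pigs, with a difference of -0.05 (standard error 0.04). Both had a small residual SD in the fit with temperature and breed, 0.12 for ELF1 and for ETS2, higher than that of 16.4% and 14.2% of all probes tested. Differences of this size were within the spread between pigs.

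ETS1 was nearly level between temperatures on all 4 probes. Probe 1 stood between 11.99 and 12.51 in TN pigs (median 12.35) and between 12.04 and 12.66 in HS pigs (median 12.43). Its difference was 0.07 (standard error 0.05), and those of probes 2, 3 and 4 were 0.08, 0.05 and 0.02. All 4 estimates were positive and below 0.10.

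In the PEA3 group, ETV1 and ETV5 had estimates of opposite sign. ETV1 probe 1 lay between 13.86 and 14.86 in TN pigs (median 14.35) and between 14.14 and 15.15 in HS pigs (median 14.64), a difference of 0.21 (standard error 0.08) that was positive in Creole (0.13), Large White (0.17) and cross pigs (0.34). On slide 3 it was -0.03, and on the other 4 slides between 0.13 and 0.36. Its probe 2 had a difference of 0.10 (standard error 0.08). ETV5 lay between 10.90 and 11.93 in TN pigs (median 11.59) and between 10.76 and 11.999 in HS pigs (median 11.50), a difference of -0.13 (standard error 0.10). It was 0.18 in Creole pigs, -0.27 in Large White pigs and -0.28 in the cross (standard error 0.16 each), and the interaction was not called (limma F test, unadjusted p = 0.0808, adjusted p = 0.982). Over the 12 probes the interaction had 0 calls, as it had over all probes (0%), and 0 of the 12 had an unadjusted p under 0.05, against 1932 of all 45943 probes.

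**Figure D3:**
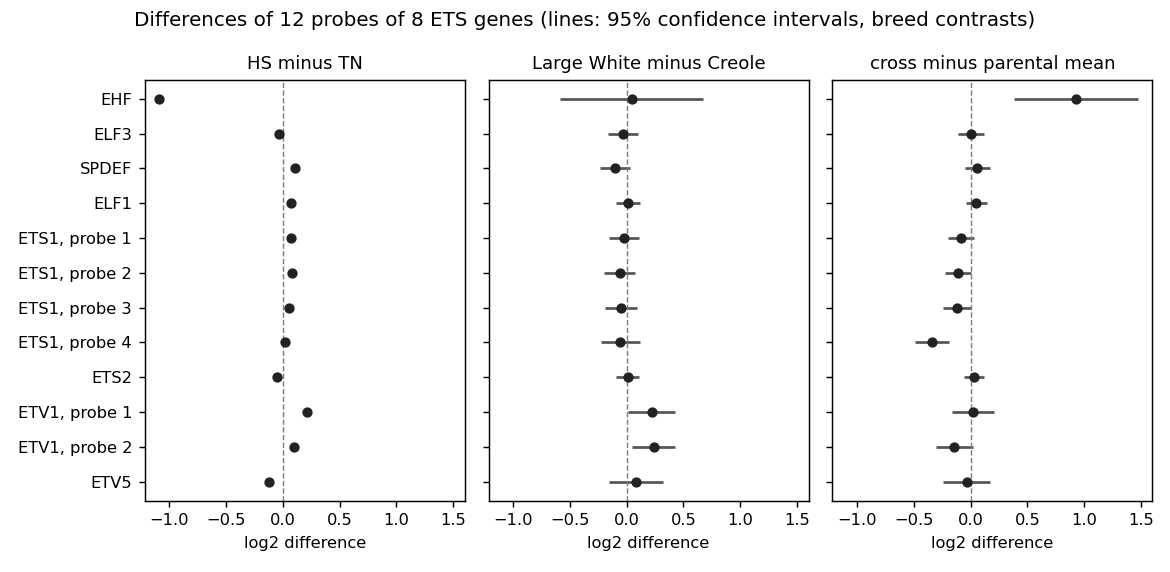
Log2 differences (x axis) of the 12 probes (rows) for HS minus TN, Large White minus Creole and the cross minus the mean of both parental breeds. Points are estimates of the fit over 36 pigs. Lines in the panels of the breed contrasts are 95% confidence intervals of single probes, not adjusted for the number of probes, and the first panel has none because its contrast was used to choose the genes. EHF stands at -1.09 in the first panel and 0.93 in the third, and ETS1 probe 4 at -0.34 in the third.

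Breed was not used to choose the genes, so it was tested, although earlier results of these data were known when they were chosen. Across the 3 breeds, 1 of the 12 probes passed an FDR of 0.05, against 10.4% of all probes (limma F test, 4796 of 45943). This was ETS1 probe 4 (adjusted p = 0.0065 by the limma F test), which passed in all 48 alternatives. EHF lay just beyond the threshold (limma F test, unadjusted p = 0.00578, adjusted p = 0.0535). It was past the threshold in 14 of 48 alternatives, among them the slide as a block (adjusted p = 0.0231) and without slide 5 (adjusted p = 0.00875). Over the 48 alternatives the adjusted p of this F test for EHF ran from 0.00875 to 0.434. ETV1 probe 2 was past it only with the slide as a block (adjusted p = 0.0463), without slide 3 (adjusted p = 0.026) and without Large White HS replicate 2 (adjusted p = 0.043), and not in the main limma fit (adjusted p = 0.0896). At an unadjusted p under 0.05 there were 3 of the 12 probes, those of EHF, ETS1 probe 4 and ETV1 probe 2, and 11268, or 24.5%, of all probes.

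Between the parental breeds, 0 of the 12 probes passed (limma with Benjamini-Hochberg adjustment), against 11.3% of all probes, and 2 had an unadjusted p under 0.05, as had 24.2% of all probes. Both were probes of ETV1, at 0.22 (standard error 0.10, adjusted p = 0.184) and 0.24 (standard error 0.09, adjusted p = 0.0925) higher in Large White than in Creole pigs. Without Large White HS replicate 2 probe 2 passed (limma, adjusted p = 0.0466). EHF had the widest interval of the 12, from -0.58 to 0.67 around a difference of 0.04 (95% confidence interval, 12 pigs per breed), so that values within these bounds are compatible with the data.

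The cross lay furthest from the mean of its parents for EHF and for ETS1 probe 4, in opposite directions, and only the latter passed the FDR. EHF was 9.18 ± 1.13 (SD, n = 12) in the cross, 8.23 ± 0.67 in Creole and 8.27 ± 1.03 in Large White pigs (SD, n = 12 each). The cross exceeded the mean of its parents by 0.93 (standard error 0.27), a 1.90-fold higher intensity that did not pass the FDR (limma, unadjusted p = 0.00144, adjusted p = 0.117). Of the 12 cross pigs, 3 exceeded all 24 parental pigs, at 10.41 to 11.14, and these 3 were TN pigs. Without slide 5 the excess was 1.30 (standard error 0.27) and passed (limma, adjusted p = 0.0403). Without slide 3 it was 0.65 and did not (adjusted p = 0.565).

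ETS1 probe 4 was 9.68 ± 0.29 (SD, n = 12) in the cross, 10.05 ± 0.13 in Creole and 9.99 ± 0.18 in Large White pigs (SD, n = 12 each). The cross was lower than the parental mean by 0.34 (standard error 0.07, limma adjusted p = 0.0291), in a contrast in which 188 probes passed, or 0.409% of all, with 0.202% higher and 0.207% lower in the cross. Among the 12 probes it was the only call in this contrast. Of the 12 cross pigs, 6 stood at 9.36 to 9.63, below all 24 parental pigs (lowest 9.67), and the other 6 stood at 9.74 to 10.102, within the parental range. The 6 pigs below the parental range were 3 TN and 3 HS pigs. The cross was lower in each of the 48 alternatives, by 0.31 to 0.38, but the call was lost in 10 of them, with median centring, without slide 1, 2, 3 or 5 and without any 1 of 5 cross pigs (limma adjusted p up to 0.182).

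The other probes of ETS1 gave smaller differences for the cross. They were -0.09, -0.11 and -0.12 for probes 1, 2 and 3 (standard error 0.06 each), and none passed (limma adjusted p between 0.484 and 0.613). Over the 36 pigs, probe 4 had a correlation of 0.56 with probe 1, 0.45 with probe 2 and 0.43 with probe 3, while probes 1, 2 and 3 had correlations of 0.83 to 0.92 with each other. These correlations are descriptions over pigs that share arrays and groups. The 4 probes of ETS1 thus disagree on the size of the difference, and only the stretch of probe 4 carried the call. Whether the difference on probe 4 is one in the amount of ETS1 transcript was not tested. Markers of lymphoid cells, in which ETS1 is abundant, had lower estimates in the cross for 11 of 12 genes tested, with a median of -0.16. None of them passed in this contrast, and 3 had an unadjusted limma p under 0.05, as had 11% of all probes. The mean log2 intensity of the 12 markers ran from 8.01 to 8.39 in the cross, from 8.02 to 8.52 in Creole and from 8.14 to 8.75 in Large White pigs, with a correlation of 0.39 with ETS1 probe 4 and of 0.20 with probe 1. For 10 endothelial markers, 8 of them with lower estimates in the cross (median -0.06, 0 called and 0 at an unadjusted limma p under 0.05), these correlations were 0.30 and 0.58. The part of these cells in the values of ETS1 was not tested.

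**Figure D4:**
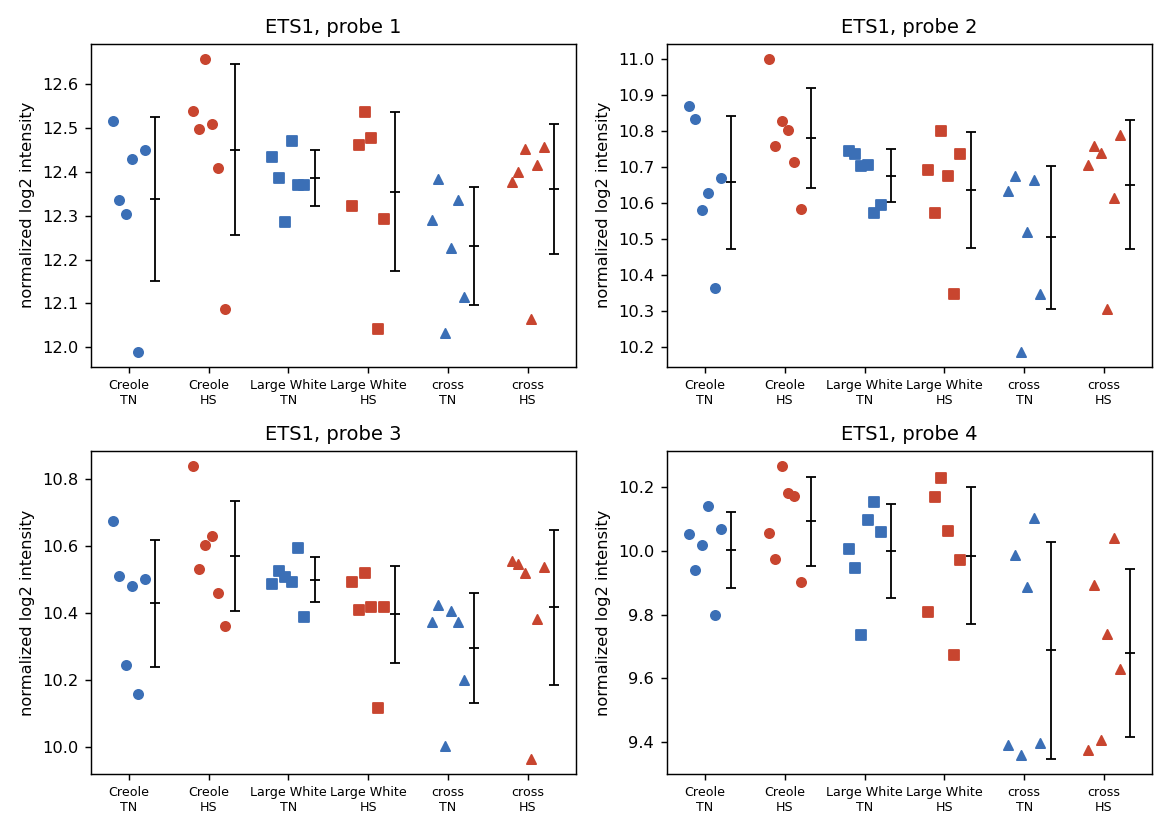
Normalized log2 intensity (y axis) of the 4 ETS1 probes in 36 pigs by breed and temperature (x axis). Points are pigs and the black marks are group means with error bars of 1 SD, and each panel has its own y range. On probe 4, 6 of 12 cross pigs lie below the lowest parental pig (9.67), against 0 on probe 1 and 2 on each of probes 2 and 3.

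Among the 8 genes, values over the 36 pigs were mostly unrelated. The highest Pearson correlation of 28 pairs was that of EHF and ETS2 (0.42, and 0.31 after the 6 group means were removed), followed by ELF1 and SPDEF (0.38 and 0.27). The lowest was that of EHF and ETS1 (-0.45 and -0.39). EHF had correlations of 0.26 with ETV5, 0.04 with ELF3 and -0.08 with SPDEF. After the group means were removed, those with ELF3 and SPDEF were -0.01 and -0.05.

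The 5 genes whose pattern was most like that of EHF came from outside the family. Few ETS genes stood among the 10287 compared, so nothing is read from this. Of the listed genes ETS2 ranked highest, at 327 over the 36 pigs. Over the 36 pigs and 10287 named genes, the highest correlations were those of RND3 (0.73), PPP1R15B (0.72), a subunit that directs a phosphatase to the translation factor eIF2α, FAM53C (0.71), HES6 (0.70), a HES family transcription factor, and NAB2 (0.69), a corepressor of EGR proteins. After the 6 group means were removed, the highest were API5 (0.68), LYSMD3 (0.67), PPP1R15B (0.67), SPATA6 (0.63) and COL15A1 (0.62), so that PPP1R15B was among the 5 highest by both measures. The most opposite gene over the 36 pigs was SESN1 (-0.74, and -0.53 within groups), a sestrin, and within groups it was CXCL12 (-0.63, and -0.48 over the 36 pigs), a chemokine. The difference between temperatures was -0.25 for RND3, -0.17 for PPP1R15B, -0.10 for FAM53C, -0.21 for HES6 and -0.40 for NAB2, and is given without a test, as these genes were picked for their likeness to EHF. These likenesses are ranks in 36 arrays that share slides and groups, and EHF's own difference between temperatures enters them.

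**Figure D5:**
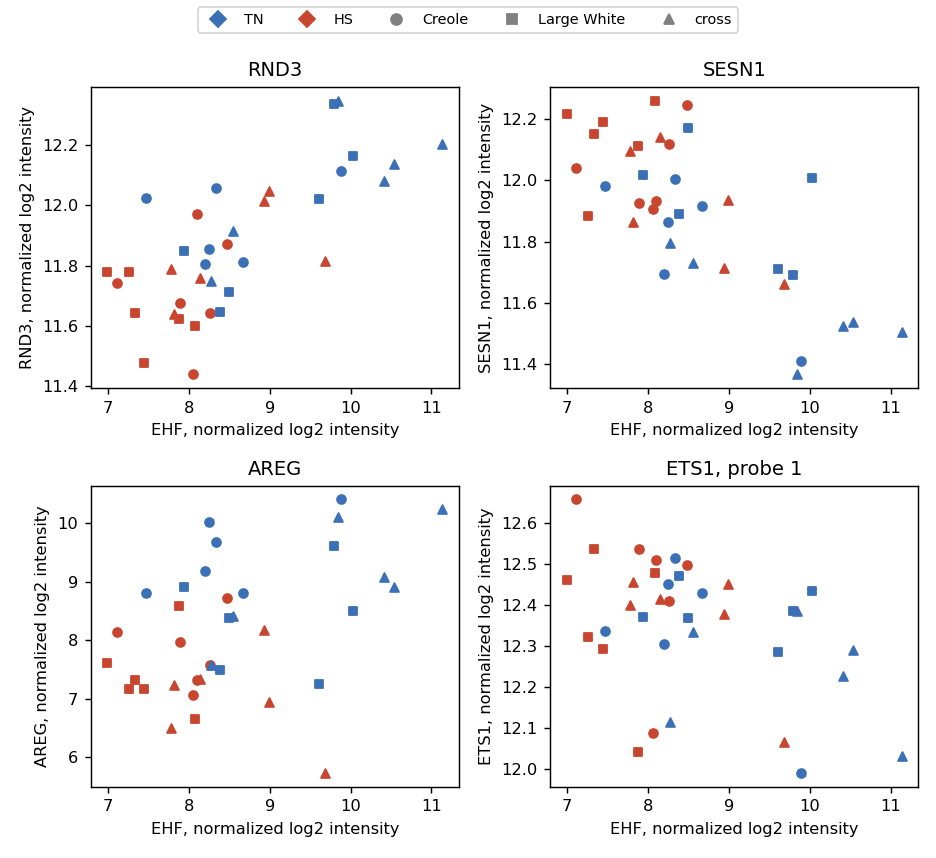
Normalized log2 intensity of RND3, SESN1, AREG and ETS1 probe 1 (y axes) against that of EHF (x axes) in 36 pigs, with TN pigs in blue, HS pigs in red and the breed as symbol. RND3 rises with EHF (r = 0.73), SESN1 falls (r = -0.74), and AREG (r = 0.44) and ETS1 (r = -0.45) scatter more widely.

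Of 17 further ETS genes, 10 had a named probe and all 10 passed the filter. None of the 10 passed the FDR for temperature (0.886% of all probes), and 0 had an unadjusted p under 0.05 (13.4% of all), with 3 higher and 7 lower in HS pigs, a median difference of -0.03 and the widest estimate for ELK4 (-0.14, limma adjusted p = 0.467), a partner of serum response factor. ELK1 differed by -0.07 and ETV6 by 0.07. By breed, ETV6, a repressor of the family, was 0.18 lower in Large White than in Creole pigs (standard error 0.05, limma adjusted p = 0.0201), although it did not pass the F test across the 3 breeds (limma adjusted p = 0.0518), in which 0 of the 10 passed. The other 9 were not called in that contrast, in which 11.3% of all probes passed. SPI1 and SPIB, which are markers of myeloid and B cells, differed between temperatures by -0.02 and 0.03.

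The signals that feed ETS factors were looked at in a list of 27 receptor, ligand, RAS and ERK genes, of which 19 were tested. Of these 1 passed for temperature, against 0.886% of all probes. It was AREG, a ligand of the EGF receptor. Estimates were positive for 6 of the 19 genes and negative for 13, and 7 had an unadjusted limma p under 0.05, against 13.4% of all probes. The list was made with earlier results of these data known, so this call is no independent result. AREG fell from 8.97 ± 0.94 to 7.40 ± 0.74 (SD, n = 18 each, difference -1.57, limma adjusted p = 0.00173). Its correlation with EHF over the 36 pigs was 0.44, and 0.31 within groups. Cross HS replicate 4, whose array was the brightest by its median raw intensity, had the highest EHF of the HS pigs and the lowest AREG of all. The mean of the 19 genes tested, AREG among them, had a correlation with EHF of 0.52, and of 0.31 within groups. The ligands FGF9 (-0.35), TGFA (-0.20) and HBEGF (-0.13) did not pass (limma adjusted p = 0.101, 0.118 and 0.185), and the median of the list was -0.03.

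Of 14 genes of ERK feedback and output, 9 were tested and 0 passed for temperature, 6 of them lower and 3 higher, with 4 at an unadjusted limma p under 0.05 (13.4% of all probes). The widest estimates were those of IER3 (-0.47, limma adjusted p = 0.0996), FOSL1 (-0.40, adjusted p = 0.122) and PHLDA1 (0.28, adjusted p = 0.185). DUSP6, the ERK phosphatase, differed by 0.00 and SPRY2 by -0.21. Of 11 partners and regulators of ETS proteins, 8 were tested and 0 passed for temperature, with 2 at an unadjusted limma p under 0.05. JUN, the AP-1 subunit, had the widest estimate (-0.31, limma adjusted p = 0.0828), while CIC, the repressor of the PEA3 genes, differed by 0.07 and DET1 of the ligase that degrades PEA3 proteins by 0.11. None of the genes tested in these 2 lists or in the list of receptors and ligands passed for breed either, against 10.4% of all probes by the F test and 11.3% between the parental breeds.

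Of the markers of epithelial, endothelial and lymphoid cells, none passed the FDR for temperature, a contrast in which 0.886% of all probes passed and 13.4% had an unadjusted p under 0.05, so that counts of 0 in lists of this length are near the background. Of 18 epithelial markers, 14 were tested, 5 of them higher and 9 lower in HS pigs with a median of -0.01, and 2 had an unadjusted limma p under 0.05. These were CDH1 (-0.29, limma adjusted p = 0.281) and CLDN7 (0.13, adjusted p = 0.253). After CDH1, the widest estimates were those of KRT7 (-0.20), ST14 (-0.17) and KRT18 (0.14), and EPCAM differed by -0.02. The mean log2 intensity of the 14 ran from 7.66 to 8.03 in TN pigs and from 7.55 to 7.98 in HS pigs, with a correlation with EHF of -0.05. For endothelium, 0 of 10 markers tested passed for temperature (means of 11.41 to 11.78 in TN and 11.47 to 11.81 in HS pigs), and for lymphoid cells 0 of 12 (8.01 to 8.75 and 8.02 to 8.61), with 0 in either list at an unadjusted limma p under 0.05. The means of these endothelial and lymphoid markers had correlations with EHF of -0.15 and -0.36, and of -0.26 and -0.30 within groups. Of 10 cortical genes, 2 passed and 3 had an unadjusted limma p under 0.05. This list too was made with earlier results of these data known, so the 2 calls are no independent result. NR0B1 rose by 0.50 and NR5A1 fell by 0.25 under HS (limma adjusted p = 0.00795 and 0.0254). Their correlations with EHF were -0.60 and 0.62 over the 36 pigs, and -0.35 and 0.51 within groups. No gene of chromaffin cells (6 tested), adipocytes (6) or kidney tubule (3) passed for temperature, and 2, 0 and 0 of them had an unadjusted limma p under 0.05. All 6 chromaffin genes had lower estimates in HS pigs, with a median of -0.21 and the widest for PNMT (-0.35, limma adjusted p = 0.0797), which makes adrenaline. The part of these cells in the values of EHF was not tested.

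Between the parental breeds, where 11.3% of all probes passed, at least 1 marker passed in each of these lists other than that of the kidney tubule. EPCAM (0.68), CLDN3 (0.22) and ST14 (0.55) of the epithelial list were higher and KRT7 (-0.91) was lower in Large White than in Creole pigs (limma adjusted p between 0.000264 and 0.0335). KDR (0.68) and PLVAP (0.38) of endothelium and CD3D (0.59) of T cells were higher (adjusted p between 0.000401 and 0.00581 in the limma fit). Of the cortical genes, STAR (-0.34) and HSD3B1 (-0.78) were lower, and of 6 chromaffin genes PNMT (0.38), CHGA (0.16), CHGB (0.53) and SCG2 (1.03) were higher. Of 6 adipocyte genes, ADIPOQ (-1.62), FABP4 (-1.33), PLIN1 (-0.90) and CIDEC (-0.59) were lower and LPL (0.91) was higher in Large White pigs, and 0 of 3 kidney tubule genes passed (1 at an unadjusted limma p under 0.05). CD79B of B cells passed the F test across the 3 breeds (limma adjusted p = 0.0337) and differed by -0.31 between the cross and the mean of its parents, which did not pass (limma adjusted p = 0.0966). No marker passed in the contrast of the cross with its parents. The mean log2 intensity of the adipocyte genes ran from 8.83 to 10.07 in Creole, from 8.69 to 9.27 in Large White and from 8.896 to 9.98 in cross pigs. The part of these cells in the breed values of the ETS genes was not tested.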

How the data were processed

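RNA of 36 adrenal glands was labelled with Cy3 by the authors, hybridised to a porcine Agilent array and read with the software Feature Extraction (version 10.10.1.1). Spot intensity is deposited in scanner files with no normalization across arrays. A second deposited table, from the authors, gives quantile-normalized log2 values for 45348 probes, and its values of the 12 probes differed from those used here by at most 0.00946. It held 0 columns of other samples.

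Here control spots and spots marked as outliers were left out, the median signal was quantile normalized and log2 was taken. Of 60305 probes, 45943 were tested, each well above background in 9 or more of the 18 TN or the 18 HS arrays. Probes were named from the annotation in the scanner files (21837), RefSeq accessions of Sscrofa11.1 (2991) and older symbols (194), and 35283 had no name. The brightest probe stands for a gene in lists and correlations.

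Tests were made in R 4.3.3 by limma 3.58.1 (lmFit, eBayes, with temperature and breed, Benjamini-Hochberg adjustment over all probes, threshold 0.05), with an F test for breed and for the interaction. Pen, day of slaughter and parents, random effects in the authors' model, were not used. The members and the gene lists were chosen with earlier results of these data known. Genes named beside the members are those called in a list, up to 3 further ones with the widest estimates, and the 5 genes most correlated with EHF, over all pigs and within groups. For endothelial, lymphoid, chromaffin, adipocyte and kidney tubule markers, the uncalled genes are given by counts. Several genes named for their role (DUSP6, SPRY2, CIC, HBEGF, SPI1, SPIB, EPCAM, CLDN7 and KRT18) were chosen after their values were seen. So were SESN1, CXCL12 and, for their brightness, STAR, CYP11A1, CHGA, MC2R and SLC18A1. In simulated data of 45943 probes, the temperature fit recovered 88% of 200 probes changed by 0.5 and 96% of those changed by 1, with 8 false calls. Python 3.11.15 made the tables and figures. The number of arrays limits the precision.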

Additional observations from a re-analysis of the deposited data

Results flagged for a closer look

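In 6 of 72 sets of 6 pigs (12 probes in 6 groups), 1 pig stood far from the other 5, where chance gives about 3.6. In cross HS pigs, replicate 4 was low on ETS1 probe 1 (12.07, others 12.38 to 12.46), probe 2 (10.31, others 10.61 to 10.79) and probe 3 (9.97, others 10.38 to 10.56), and probes 2 and 3 are nearly the same sequence. The same pig was low on ETV1 probe 1 (14.32, others 14.71 to 14.89). Its array had a median raw intensity of 186.5, the highest of the 36, and the part of brightness in these values was not tested. In Large White HS pigs, replicate 5 was low on ETS1 probe 3 (10.12, others 10.41 to 10.52), and replicate 2 was high on SPDEF (6.64, others 6.44 to 6.47).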

How the results depend on the processing

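Over 49 alternatives the EHF difference between temperatures lay between -1.18 and -0.998 without single pigs, -1.40 and -0.90 without single slides and -1.17 and -1.01 otherwise. The count of member probes called for temperature fell from 1 to 0 without a breed term, without slide 1, 2, 3 or 4 and without cross HS replicate 2, cross TN replicate 3 or Large White TN replicate 2 (0 to 1 without single pigs or slides), and nothing is read from this count, since the choice of genes used that contrast. The breed F test called 2 probes with the 75th percentile of the processed signal, 3 with the slide as a block, and 1 to 2 without single pigs or slides. The cross contrast called 0 with median centring and 0 to 1 without single pigs or slides, and Large White against Creole 0 to 1 without single pigs. The interaction called 0 throughout. The cause of these changes was not tested. Over all probes, the temperature count was 407, and 890 with the slide as a block, 33 without slide 2, 34 without slide 3, 54 without slide 4 and 169 without slide 1. Leaving out 1 pig moved it by over 1.5 times for Large White HS replicate 5 (812) and 4 (231), Creole HS replicate 6 (727), cross HS replicate 2 (241), cross TN replicates 2 (243), 3 (221) and 4 (261) and Large White TN replicate 2 (259). For the cross it was 188, and 120 with median centring, 299 with the slide as a block, 13 without slide 3, 40 without slide 2, 86 without slide 5, and 106 and 109 without cross HS replicates 3 and 4 and 119 and 114 without cross TN replicates 1 and 2. The breed F count was 4796, and 2625 and 2003 without slides 2 and 3, and that of Large White against Creole was 5178, and 3341 and 2560. EHF has a single probe, so that another of its probes could not be tried. No paired analysis was possible because the groups consist of different pigs, and the labels give them no shared replicate numbers and do not identify littermates.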
